A study of Mus musculus with 8 samples.

Results

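The nuclear-encoded subunits of respiratory complexes II to V were measured in cultured mouse adipocytes with 84 probe sets for 45 genes, out of 20380 probe sets with a single annotated gene and 12393 genes on the arrays. The genes were chosen by symbol alone, as Sdha, Sdhb, Sdhc, Sdhd, Cyc1 and Cycs and every symbol starting with Uqcr, Atp5, Cox4, Cox5, Cox6, Cox7 or Cox8, and Cox7a1 and Cox8b, isoforms typical of brown fat, were left out. Sorted by symbol too, they comprise 4 genes of complex II, 9 of complex III, 1 for cytochrome c, 14 of complex IV and 17 of ATP synthase, which is also called complex V. Cox7a2l, for example, counts under complex IV by its symbol alone, and whether each product is a subunit was not tested. All 45 passed the filter on low values. The stromal vascular cells came from inguinal white fat of male C57BL/6J mice and had been differentiated into adipocytes while expressing a short hairpin RNA. The 4 groups were sh-PRDM16 adipocytes with 1 µM rosiglitazone, sh-PRDM16 adipocytes without it, sh-scr adipocytes with 1 µM rosiglitazone and sh-scr adipocytes without it. Each group had 2 arrays, described by the submitters as biological replicates. The age of the mice, and whether the replicates came from separate animals or cultures, are not stated in the labels, so p-values measure the spread between these arrays. PRDM16 is a transcriptional co-regulator that drives brown and beige fat identity, and rosiglitazone is an agonist of PPARγ, the master regulator of fat cell differentiation. No probe set was paired with Prdm16, so the knockdown itself was not checked on these arrays.

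The respiratory chain sits in the inner mitochondrial membrane. Complex II (succinate dehydrogenase) links the citric acid cycle to the chain by passing electrons from succinate to ubiquinone, complex III passes them on to the mobile carrier cytochrome c, and complex IV (cytochrome c oxidase) hands them to oxygen. Complexes III and IV pump protons out of the matrix, and ATP synthase lets them flow back to make ATP. In brown and beige fat cells the uncoupling protein UCP1 offers protons another way back, so that a high respiratory capacity releases heat, and brown fat is known for its dense mitochondria. All subunits of complex II are encoded in the nucleus, whereas complexes III, IV and V also contain subunits encoded by mitochondrial DNA, for which no probe set was paired here.

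Promoter sequences, from 250 bases before to 50 bases after the gene start (RefSeq, GRCm38.p6), were matched for 33 of the 45 genes. They were searched on both strands for the letters of motifs of transcription factors known to act on respiratory genes or, in the case of PPAR, to be the target of the drug. The NRF1 motif GCGCANGCG was present in 12 of the 33 promoters (36.4%) and in 6.47% of all 27025 promoters. The ETS motif CCGGAAG, bound by GABP, was also present in 12 (36.4%), against 9.12% of all promoters. The ERR motif TCAAGGTCA, which contains the shorter half-site AGGTCA, was found for Sdhd and Atp5g3 (6.06%, against 0.407% of all promoters). The YY1 motif AANATGGCG was found for Atp5b and Atp5j2 (6.06%, against 2.51%). A PPAR motif written as AGGTCA in direct repeat with 1 base between was in none of the 33 and in 0.0444% of all promoters. In all, 20 of the 33 contained at least 1 of these motifs. The median GC content was 57% for these promoters and 52.7% for all. A match of letters is a description and not a binding site. Promoters of 5 genes are shown because their expression, described below, spans the range of the results. Sdhd (chr9:50603800-50604099) and Sdha (chr13:74350191-74350490) belong to complex II, Uqcrfs1 (chr13:30545267-30545566) had the largest rise with the drug in sh-PRDM16 cells, Cycs (chr6:50566520-50566819) encodes cytochrome c, and Cox6a1 (chr5:115348909-115349208), chosen after its values were seen, changed little. All 5 lie on the minus strand and are written 5′ to 3′ in the direction of the gene, with NRF1, ETS and ERR motifs in capitals. The capitals in Sdhd are an NRF1, an ETS and an ERR motif in that order, in Sdha 3 NRF1 motifs, and in Cycs 1 NRF1 motif. In Cox6a1 they are an NRF1 stretch that matches on both strands, a further NRF1 motif and an ETS motif. Uqcrfs1 has none.
Sdhd: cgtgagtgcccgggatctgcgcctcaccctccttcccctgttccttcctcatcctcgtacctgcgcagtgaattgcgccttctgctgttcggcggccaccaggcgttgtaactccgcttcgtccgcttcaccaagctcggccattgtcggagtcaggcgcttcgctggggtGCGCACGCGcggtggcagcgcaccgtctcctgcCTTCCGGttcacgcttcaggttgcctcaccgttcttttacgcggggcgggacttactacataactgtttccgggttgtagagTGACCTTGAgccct
Sdha: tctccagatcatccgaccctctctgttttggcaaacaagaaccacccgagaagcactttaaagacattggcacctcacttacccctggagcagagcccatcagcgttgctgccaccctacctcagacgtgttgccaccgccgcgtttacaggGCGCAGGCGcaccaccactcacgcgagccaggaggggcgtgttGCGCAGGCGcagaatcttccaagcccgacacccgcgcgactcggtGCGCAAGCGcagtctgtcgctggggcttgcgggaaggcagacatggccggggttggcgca
Cycs: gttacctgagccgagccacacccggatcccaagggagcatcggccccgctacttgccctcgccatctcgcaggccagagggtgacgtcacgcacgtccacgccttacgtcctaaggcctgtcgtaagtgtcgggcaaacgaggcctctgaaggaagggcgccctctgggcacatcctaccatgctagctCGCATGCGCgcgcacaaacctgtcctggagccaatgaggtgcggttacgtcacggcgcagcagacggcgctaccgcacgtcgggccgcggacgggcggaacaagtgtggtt
Uqcrfs1: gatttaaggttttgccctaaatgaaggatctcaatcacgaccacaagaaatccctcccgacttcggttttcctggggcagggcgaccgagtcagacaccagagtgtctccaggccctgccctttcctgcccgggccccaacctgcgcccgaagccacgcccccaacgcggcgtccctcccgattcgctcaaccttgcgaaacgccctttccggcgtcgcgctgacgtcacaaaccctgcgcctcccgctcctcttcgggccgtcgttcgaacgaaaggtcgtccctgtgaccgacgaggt
Cox6a1: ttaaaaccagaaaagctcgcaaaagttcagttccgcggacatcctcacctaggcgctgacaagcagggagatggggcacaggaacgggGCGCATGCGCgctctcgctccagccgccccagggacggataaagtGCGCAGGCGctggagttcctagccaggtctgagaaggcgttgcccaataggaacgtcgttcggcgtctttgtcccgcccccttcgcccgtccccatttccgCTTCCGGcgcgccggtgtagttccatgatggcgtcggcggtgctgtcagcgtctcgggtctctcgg

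Median changes of genes with and without a motif in the promoter were set side by side for the 2 motifs found most often. For the NRF1 motif, the median log2 change with rosiglitazone was 0.521 in sh-PRDM16 cells and 0.224 in sh-scr cells (12 genes), beside 0.534 and 0.194 for the 21 genes whose promoters lacked it. For sh-PRDM16 against sh-scr without the drug the medians were −0.434 with the motif and −0.449 without it. For the ETS motif, the rosiglitazone medians were 0.524 in sh-PRDM16 cells and 0.218 in sh-scr cells (12 genes), beside 0.534 and 0.194 without the motif (21 genes). Between hairpins without the drug they were −0.56 with the ETS motif and −0.374 without it. These are descriptions over genes, without a test.

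The deposited arrays differed in overall brightness, which bears on every count below. The median intensity per array lay between 100.7 and 135.65, and it was lowest in sh-scr cells with rosiglitazone. As a result the median log2 change of all 9294 genes tested was −0.31 with rosiglitazone in sh-scr cells, and 0.003 with rosiglitazone in sh-PRDM16 cells. It was −0.16 for sh-PRDM16 against sh-scr without the drug and 0.15 with it. Changes are therefore given on the deposited scale and also relative to all genes, and counts of calls with each array centred on its median are given beside those on the deposited scale. Within each array, the median of the 45 genes stood above the median of all genes by a log2 difference of 4.169 and 4.198 in treated sh-PRDM16 cells, against 3.438 and 3.645 in untreated sh-PRDM16 cells. In sh-scr cells it was 4.4 and 4.601 with rosiglitazone, against 3.929 and 3.947 without. Relative to the other genes, then, both treated groups lay above their untreated counterparts and both sh-PRDM16 groups below the matching sh-scr group, with no overlap between arrays.

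**Figure D1:**
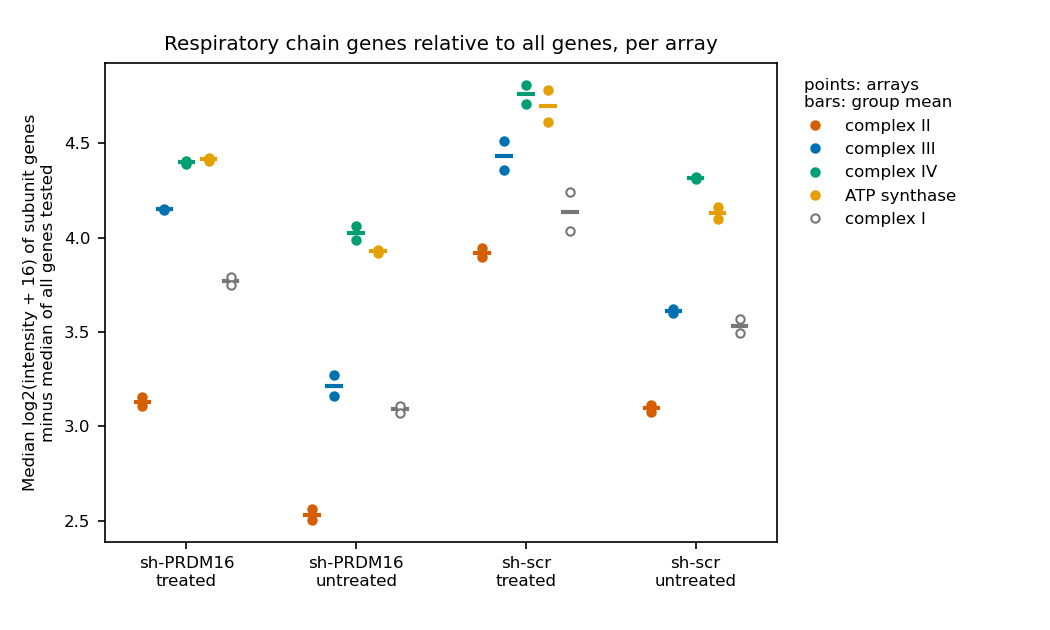
Median log2(intensity + 16) of the subunit genes of each complex minus the median of all genes tested, for each of the 8 arrays (points, 2 per group; bars are group means). Each complex is lowest in untreated sh-PRDM16 cells and highest in treated sh-scr cells; levels of different complexes come from different probe sets and are not to be compared with each other.

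Rosiglitazone raised subunit genes in both kinds of cell, and no gene was called lower with all arrays in the fit. On the deposited scale the dim gene Cox6b2 was the only complex IV gene called in sh-scr cells. In sh-PRDM16 cells 28 of 45 genes were higher with the drug (limma, adjusted p under 0.05; 10.1% of all genes tested were called higher and 3.31% lower), and the median change was a log2 of 0.519, or 0.516 above all genes. In sh-scr cells 12 of 45 were higher and 0 lower, whereas of all genes 5.2% were called higher and 32.2% lower, and the median change was 0.178, or 0.484 above all genes. With arrays centred on their medians the counts were 35 of 45 in sh-PRDM16 cells (14.4% of all genes higher, 9.83% lower) and 39 of 45 in sh-scr cells (14.7% higher, 9.95% lower). With quantile-normalized arrays they were 34 (13.2% of all genes higher, 13.5% lower) and 36 (13.1% higher, 14.9% lower). All 12 genes called in sh-scr cells were also called in sh-PRDM16 cells, so the shared genes are 100% of the 12 and 42.9% of the 28. Both treated arrays lay above both untreated ones for 41 genes in sh-PRDM16 cells (27% of all genes) and for 34 in sh-scr cells (12.4% of all genes). They lay below both untreated ones for 0 genes in sh-PRDM16 cells (23.6% of all genes) and for 3 in sh-scr cells (64.7% of all genes). The SE of a log2 change was 0.132 at the median, so with 2 arrays per group small changes could not be resolved.

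The count of genes higher in sh-scr cells depended on single arrays. It fell without any 1 array of the sh-scr cells, and so did the count over all genes. With 1 untreated replicate left out, whichever it was, the 45 genes were called little more often than all genes. Each such fit leaves 1 array in a group. The median change relative to all genes was 0.484 without 1 untreated replicate. It was 0.55 and 0.416 without replicate 1 and replicate 2 of the treated cells. Without replicate 1 of treated sh-scr cells 1 dim gene, Cox8c, was called lower. In sh-PRDM16 cells the count of genes higher fell most without replicate 2 of the untreated cells and without replicate 1 or replicate 2 of the treated cells. The count over all genes fell in these fits too. The median change relative to all genes was then 0.553, 0.495 and 0.529, in the same order.

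**Figure D2:**
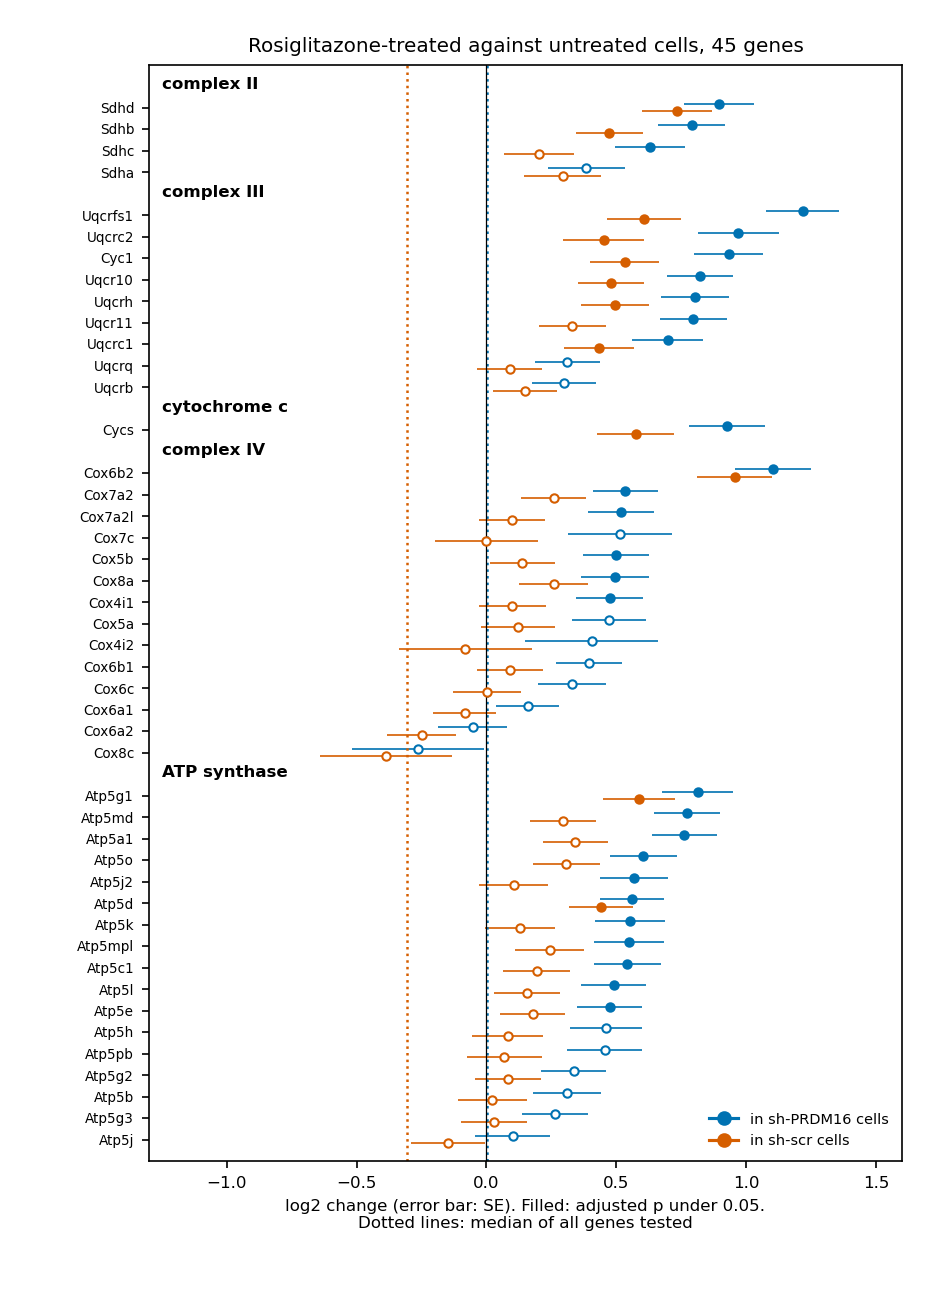
Log2 change with rosiglitazone against untreated cells for each of the 45 genes, in sh-PRDM16 cells (blue) and sh-scr cells (orange), grouped by complex; bars are SE, filled points have an adjusted p under 0.05 and dotted lines are the median of all genes. Nearly all genes lie to the right of the line of their own comparison, and of the 4 complexes, complex III holds the largest share of filled points in both.

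In complex II, Sdhd and Sdhb, a membrane anchor and the iron-sulphur subunit, rose in both kinds of cell. Sdhd had intensities of 3507 and 3952 in treated sh-PRDM16 cells, against 2133 and 1866 in untreated ones. In sh-scr cells it had 5214 and 4912 with rosiglitazone, against 2973 and 3104 without. The groups did not overlap, and the rise was 1.86-fold in sh-PRDM16 cells (log2 0.89 ± 0.13 (SE), adjusted p = 0.00244) and 1.66-fold in sh-scr cells (log2 0.73 ± 0.13 (SE), adjusted p = 0.00562). Sdhb had 6129 and 6689 in treated sh-PRDM16 cells, against 3846 and 3550.1 in untreated ones, a rise of 1.73-fold (log2 0.79 ± 0.13 (SE), adjusted p = 0.00364). In sh-scr cells Sdhb had 7649 and 7891 with the drug, against 5352 and 5844 without (log2 0.47 ± 0.13 (SE), adjusted p = 0.021). Sdhc, the other membrane anchor, rose in sh-PRDM16 cells, with 1929.6 and 2131 in treated and 1365 and 1246 in untreated cells (log2 0.63 ± 0.14 (SE), adjusted p = 0.0147). Among the sh-scr arrays it had 2261 and 2159 with the drug and 1788 and 2055 without (log2 0.20 ± 0.14 (SE), adjusted p = 0.245), and no call was made. Sdha, the flavoprotein that oxidises succinate, passed the test in neither comparison. It had 2609 and 2986 in treated sh-PRDM16 cells, against 2371 and 1923 in untreated ones (log2 0.38 ± 0.15 (SE), adjusted p = 0.128). The sh-scr arrays read 4978 and 4872 with rosiglitazone, against 3805 and 4243 without (log2 0.29 ± 0.15 (SE), adjusted p = 0.142). Its treated arrays still lay above the untreated ones in both, and on the median-centred scale all 4 genes of the complex were higher in both comparisons.

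On the deposited scale complex III had the largest shares of genes called among the 4 complexes. With rosiglitazone 7 of its 9 genes rose in sh-PRDM16 cells and 6 in sh-scr cells, with median log2 changes of 0.802 and 0.451. With arrays centred on their medians, 8 of 9 were called in sh-PRDM16 cells and all 9 in sh-scr cells, beside all 4 of complex II in both. The 6 genes called in both were Cyc1, Uqcr10, Uqcrc1, Uqcrc2, Uqcrfs1 and Uqcrh, and Uqcr11 was called in sh-PRDM16 cells. Uqcrfs1, the Rieske iron-sulphur protein at the catalytic core, had 6271 and 7147 in treated sh-PRDM16 cells, against 3148 and 2618 in untreated ones. With sh-scr the values were 7080.3 and 7255 with the drug, against 4562 and 4852 without. It rose 2.32-fold in sh-PRDM16 cells (log2 1.22 ± 0.14 (SE), adjusted p = 0.000544), the largest change of the 45 genes there, and 1.52-fold in sh-scr cells (log2 0.60 ± 0.14 (SE), adjusted p = 0.0128). Uqcrc2, a core protein of the matrix side, had 6345 and 7144 in treated sh-PRDM16 cells, against 3935 and 2994 in untreated ones (log2 0.97 ± 0.16 (SE), adjusted p = 0.00349). In sh-scr cells Uqcrc2 had 7229 and 7725 with the drug, against 5432 and 5493 without (log2 0.45 ± 0.16 (SE), adjusted p = 0.0472). Cyc1, the haem-bearing subunit that passes electrons to cytochrome c, rose by a log2 of 0.93 in sh-PRDM16 cells (adjusted p = 0.00176) and 0.53 in sh-scr cells (adjusted p = 0.0158). The small subunits Uqcrq and Uqcrb were called in neither comparison. Uqcrq had 5406 and 5706 in treated sh-PRDM16 cells and 4661 and 4296 in untreated ones (log2 0.31), and in sh-scr cells 6664 and 7201 with the drug and 6532 and 6478 without (log2 0.09). Uqcrb had 16927 and 17439 in treated sh-PRDM16 cells and 14556 and 13382 in untreated ones (log2 0.30), and in sh-scr cells 18763 and 18629 with the drug and 16441 and 17264 without (log2 0.15). A second, dimmer probe set of Uqcrb did pass in sh-PRDM16 cells (log2 0.685, adjusted p = 0.0166) and was lower in untreated sh-PRDM16 than in untreated sh-scr cells (log2 −0.679, adjusted p = 0.0156), so the 2 probe sets of this gene differ in their calls. The arrays of Uqcrq and Uqcrb were still separated by treatment in every case, by small steps.

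Cycs, the somatic gene for cytochrome c, followed complex III. It had 14849 and 15727 in treated sh-PRDM16 cells, against 8994 and 7166 in untreated ones, a 1.9-fold rise (log2 0.93 ± 0.15 (SE), adjusted p = 0.0032). In sh-scr cells it had 15673 and 17412 with rosiglitazone, against 10805 and 11384 without, a 1.49-fold rise (log2 0.57 ± 0.15 (SE), adjusted p = 0.0173). Treated and untreated arrays were far apart in both. The other 2 probe sets of Cycs gave log2 changes of 0.998 and 1.37 in sh-PRDM16 cells, and 0.65 and 1.065 in sh-scr cells, all 4 of them called.

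On the deposited scale complex IV had the smallest shares of genes called, with 6 of 14 genes higher in sh-PRDM16 cells and 1 in sh-scr cells. Of all genes 10.1% and 5.2% were called higher, so the sh-scr share was near that of all genes. The median log2 changes were 0.473 and 0.096. The 6 were Cox4i1, Cox5b, Cox6b2, Cox7a2, Cox7a2l and Cox8a. With arrays centred on their medians, all but Cox6a1 and the dim Cox4i2, Cox6a2, Cox7c and Cox8c were called in sh-scr cells. In sh-PRDM16 cells the same genes were called except Cox6c. Calls of single genes below are on the deposited scale. Cox6b2, known as the testis isoform of a subunit that faces the intermembrane space, had 206 and 207 in treated sh-PRDM16 cells, against 80.3 and 95.5 in untreated ones (log2 1.10 ± 0.14 (SE), adjusted p = 0.00108). Among the sh-scr arrays it had 203 and 252 with the drug, against 111 and 107 without (log2 0.95 ± 0.14 (SE), adjusted p = 0.00261). It was the single gene of the complex called in sh-scr cells on the deposited scale, the arrays of treated and untreated cells did not overlap, and all its intensities were dim. Its widely expressed counterpart Cox6b1 had log2 changes of 0.40 in sh-PRDM16 cells and 0.09 in sh-scr cells, neither called. Its other probe set, which is dimmer, was called in sh-PRDM16 cells (log2 0.512, adjusted p = 0.0432). Cox7a2, the common counterpart of the brown fat and muscle isoform Cox7a1, had 13965 and 14585 in treated sh-PRDM16 cells, against 10366 and 9367 in untreated ones (log2 0.53 ± 0.12 (SE), adjusted p = 0.0222). In sh-scr cells Cox7a2 had 14882 and 15676 with the drug and 12672 and 12873 without (log2 0.26 ± 0.12 (SE), adjusted p = 0.126). Cox8a, the common counterpart of Cox8b, had 5933 and 6450.2 in treated sh-PRDM16 cells, against 4575 and 4201 in untreated ones (log2 0.49 ± 0.13 (SE), adjusted p = 0.0372). The sh-scr arrays read 7962 and 7398 with the drug and 6082 and 6758 without (log2 0.26 ± 0.13 (SE), adjusted p = 0.142). For both genes the arrays did not overlap in either comparison, and the call was made in sh-PRDM16 cells. Cox6a1, a small regulatory subunit, was nearly level, with group means of 13193 ± 404 in treated and 11828 ± 432 in untreated sh-PRDM16 cells (SD, n = 2) and 13256 ± 421 in treated and 14041 ± 208 in untreated sh-scr cells (SD, n = 2).

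The tissue-restricted isoforms of complex IV other than Cox6b2 gave no call. Cox4i2, an isoform known from lung, had 17.6 and 45.3 in treated and 15.5 and 21.3 in untreated sh-PRDM16 cells, and 25.8 and 34.3 in treated and 37.6 and 27.9 in untreated sh-scr cells. Cox6a2, the heart and skeletal muscle isoform, had 119 and 99.7 in treated and 116 and 111 in untreated sh-PRDM16 cells, and 124 and 114 in treated and 141 and 148 in untreated sh-scr cells. Cox8c, known from testis, had 56.9 and 76.1 in treated and 101 and 66.5 in untreated sh-PRDM16 cells, and 94.2 and 49.3 in treated and 98.2 and 91.6 in untreated sh-scr cells. These values are dim, and treated and untreated arrays overlapped for all 3 genes in both kinds of cell, except for Cox6a2 in sh-scr cells. There the treated arrays were the lower ones, as for 64.7% of all genes, and the log2 change of Cox6a2 relative to all genes was 0.057. The ubiquitous Cox7c was measured by dim probe sets too, with 80.2 and 72.5 in treated and 37 and 62.9 in untreated sh-PRDM16 cells, and 56.4 and 59.1 in treated and 48.8 and 67.9 in untreated sh-scr cells. No detection calls were used here, so none of these genes can be called undetected.

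Of the ATP synthase genes, 11 of 17 were called higher in sh-PRDM16 cells and 2 in sh-scr cells on the deposited scale, beside 10.1% and 5.2% of all genes. The median log2 changes were 0.541 and 0.156. With arrays centred on their medians, all but Atp5j were called higher in sh-scr cells, and all but Atp5b, Atp5g3 and Atp5j in sh-PRDM16 cells. The difference between these counts thus turned with the scale, and the calls that follow are on the deposited scale. Atp5g1, which with Atp5g2 and Atp5g3 encodes the proton-carrying c subunit of the membrane ring, was the most responsive in both. It had 4506 and 4389.7 in treated sh-PRDM16 cells, against 2679 and 2381 in untreated ones, a 1.76-fold rise (log2 0.81 ± 0.14 (SE), adjusted p = 0.00448). With sh-scr the values were 4493 and 3785 with rosiglitazone, against 2781 and 2701 without, a 1.5-fold rise (log2 0.59 ± 0.14 (SE), adjusted p = 0.0129). The arrays did not overlap. Its paralogs changed less, Atp5g2 by a log2 of 0.34 in sh-PRDM16 cells and 0.08 in sh-scr cells, and Atp5g3 by 0.26 and 0.03 in the same order, none of them called. Atp5d, the delta subunit of the central stalk, had 8482 and 8212 in treated sh-PRDM16 cells, against 5789 and 5520.2 in untreated ones (log2 0.56 ± 0.12 (SE), adjusted p = 0.0166). In sh-scr cells Atp5d had 9388 and 9286 with the drug, against 6569 and 7205 without (log2 0.44 ± 0.12 (SE), adjusted p = 0.0236). It was the other gene called in both. Atp5md, a small membrane subunit, had 6805 and 7403 in treated sh-PRDM16 cells, against 4101 and 4200.2 in untreated ones (log2 0.77 ± 0.13 (SE), adjusted p = 0.00383). In sh-scr cells it had 8041 and 8770.5 with the drug, against 6640.2 and 7040.1 without (log2 0.30 ± 0.13 (SE), adjusted p = 0.0903), separated but not called. The catalytic beta subunit Atp5b had log2 changes of 0.31 in sh-PRDM16 cells and 0.02 in sh-scr cells, and the alpha subunit Atp5a1 had 0.76 and 0.34 in the same order, called in sh-PRDM16 cells (adjusted p = 0.00403). Atp5j, a coupling subunit of the peripheral stalk, had the lowest log2 change of ATP synthase in both kinds of cell. It had 4972 and 5247 in treated and 5368 and 4222 in untreated sh-PRDM16 cells (log2 0.10), and 6360.1 and 6354 in treated and 7156 and 6939 in untreated sh-scr cells (log2 -0.15). In sh-scr cells both treated arrays of Atp5j lay below both untreated ones, as they did for 64.7% of all genes. Relative to all genes, the log2 change of Atp5j there was 0.158.

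Without rosiglitazone, most subunit genes had lower levels in sh-PRDM16 than in sh-scr cells. Of the 45 genes, 21 were lower and 0 higher (limma, adjusted p under 0.05; 15.5% of all genes were called lower and 1.99% higher), and the median log2 change was −0.436, or −0.274 relative to all genes. Both sh-PRDM16 arrays lay below both sh-scr arrays for 43 of 45 genes (47% of all genes). Those lower were all 4 of complex II, 7 of 9 of complex III, 2 of 14 of complex IV and 8 of 17 of ATP synthase. The share in complex IV was near that of all genes. Of its 2 genes, Cox8a was called with centred arrays too and Cox5b was not. With arrays centred on their medians 15 were lower (11.9% of all genes lower, 9.74% higher) and with quantile-normalized arrays 20 (12.6% lower, 10.5% higher), and 15 genes were called on all 3 scales. The count of genes lower fell most without replicate 2 or replicate 1 of untreated sh-scr cells and without replicate 2 of untreated sh-PRDM16 cells. The count over all genes fell in these fits too, each of which leaves 1 array in a group. Without replicate 2 of untreated sh-scr cells the 45 genes were called no more often than all genes. The median change relative to all genes was −0.276, −0.27 and −0.298 in the 3 fits, in the order named. With rosiglitazone in both, 2 of 45 genes were lower and 0 higher in sh-PRDM16 cells (4.62% of all genes lower, 10.6% higher), and the median log2 change was −0.113, or −0.264 relative to all genes. Both treated sh-PRDM16 arrays lay below both treated sh-scr arrays for 24 of 45 genes (18.2% of all genes) and above them for 2 (46.5% of all genes). With arrays centred on their medians 11 were lower (12.4% of all genes lower, 11.4% higher), and with quantile-normalized arrays 11 (12.5% of all genes lower and the same share higher). Without replicate 1 of treated sh-PRDM16 cells no gene was called in the treated comparison. The count there also fell without replicate 2 of those cells or without any 1 array of the sh-scr cells. It was 1 in the fit with the replicate number as a block. In all these fits the count over all genes fell too.

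**Figure D3:**
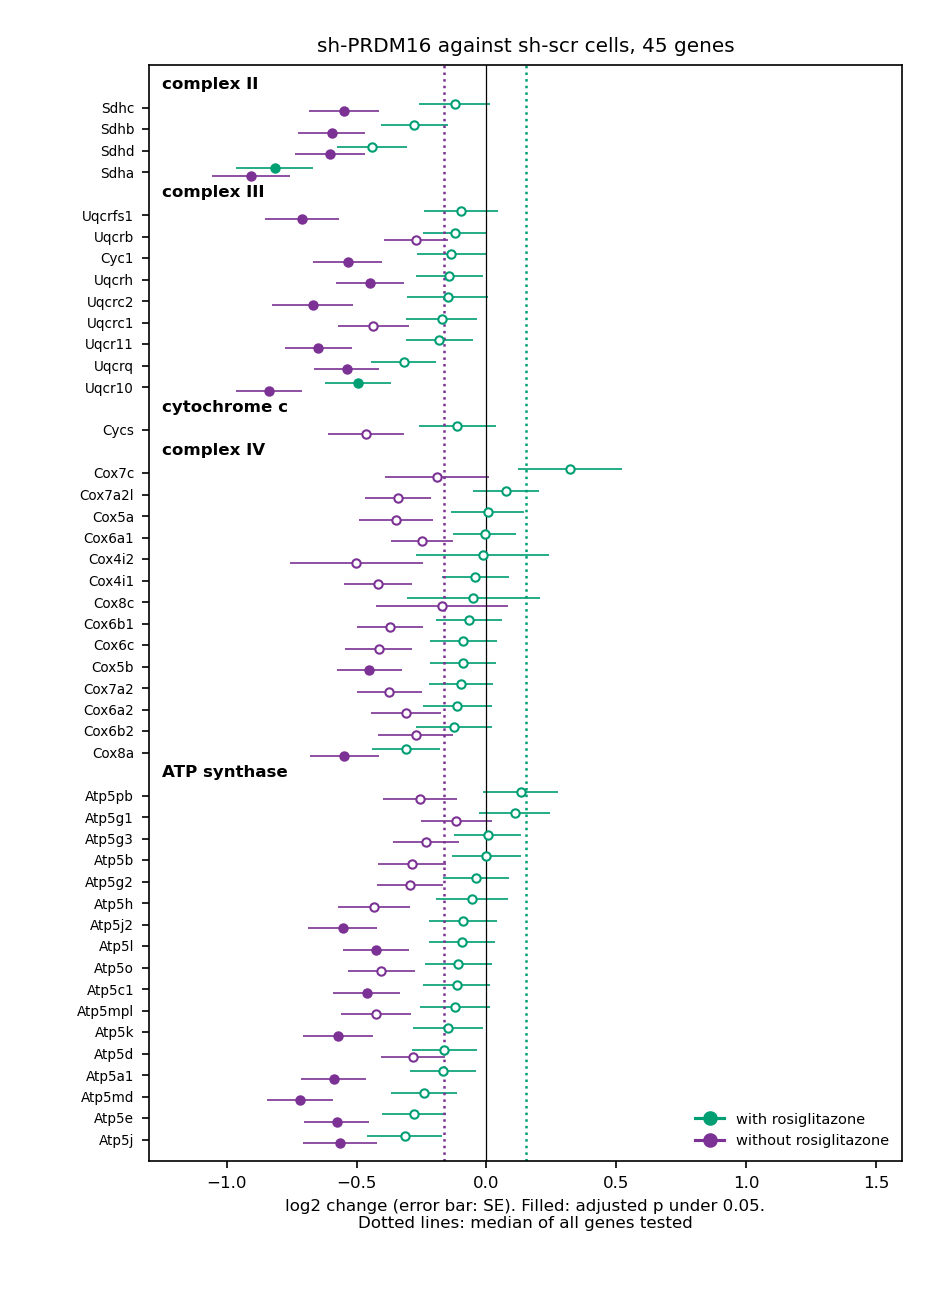
Log2 change of sh-PRDM16 against sh-scr cells for each of the 45 genes, with rosiglitazone (green) and without (purple), grouped by complex; bars are SE, filled points have an adjusted p under 0.05 and dotted lines are the median of all genes. Without the drug all 45 points lie below 0 and 21 are filled, and with it Sdha and Uqcr10 are filled.

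Sdha showed the largest deficit in sh-PRDM16 cells in both comparisons. From the intensities given above, it averaged 2147 ± 317 in untreated sh-PRDM16 cells and 4024 ± 309 in untreated sh-scr cells (SD, n = 2 each), a fold of 0.533 (log2 -0.91 ± 0.15 (SE), adjusted p = 0.00379). With rosiglitazone it averaged 2798 ± 266 in sh-PRDM16 cells and 4925 ± 75.3 in sh-scr cells (SD, n = 2 each), a fold of 0.568 (log2 -0.82 ± 0.15 (SE), adjusted p = 0.00855). The treated sh-PRDM16 arrays of Sdha lay below even the untreated sh-scr arrays. A second probe set of the gene gave log2 changes of −1.036 without the drug and −0.934 with it, both called. The other genes of complex II were lower in untreated sh-PRDM16 cells, by log2 changes of -0.60 for Sdhd (adjusted p = 0.0152), -0.60 for Sdhb (adjusted p = 0.0128) and -0.55 for Sdhc (adjusted p = 0.0231). With the drug these were -0.44, -0.28 and -0.12 for Sdhd, Sdhb and Sdhc, not called on the deposited scale and called for all 4 genes of the complex on the median-centred scale.

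In complex III, Uqcr10, a small subunit of the inner membrane part, was lower in both comparisons. It had 2293 and 2128 in untreated sh-PRDM16 cells, against 3794 and 4128 in untreated sh-scr cells, a fold of 0.56 (log2 -0.84 ± 0.13 (SE), adjusted p = 0.00263). With rosiglitazone it had 3744 and 4097 in sh-PRDM16 cells, against 5424 and 5631 in sh-scr cells, a fold of 0.71 (log2 -0.49 ± 0.13 (SE), adjusted p = 0.0324). Treated sh-PRDM16 cells thus had Uqcr10 intensities close to those of untreated sh-scr cells. Uqcrfs1 was lower in untreated sh-PRDM16 cells (log2 -0.71 ± 0.14 (SE), adjusted p = 0.00931) and differed by -0.10 with the drug (adjusted p = 0.653). Uqcrc2, Uqcr11, Uqcrq, Cyc1 and Uqcrh were also lower without the drug, by log2 changes between -0.67 for Uqcrc2 and -0.45 for Uqcrh. Cycs had a log2 change of -0.47 without the drug (adjusted p = 0.0578) and -0.11 with it, and was called in neither. The fit of all probe sets called another probe set of Cycs lower without the drug (log2 −0.571, adjusted p = 0.0424).

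In complex IV the genes called without the drug were Cox5b (log2 -0.45 ± 0.13 (SE), adjusted p = 0.0379), a nuclear subunit of the matrix side, and Cox8a (log2 -0.55 ± 0.13 (SE), adjusted p = 0.021). The other 12 had log2 changes between −0.50 for Cox4i2 and −0.17 for Cox8c. With the drug, the complex as a whole ranged from -0.31 for Cox8a to 0.32 for Cox7c, with no call. Of ATP synthase, Atp5md was lowest, as 4101 and 4200.2 in untreated sh-PRDM16 cells against 6640.2 and 7040.1 in untreated sh-scr cells (log2 -0.72 ± 0.13 (SE), adjusted p = 0.00526), with no overlap. Atp5a1, Atp5e, Atp5k, Atp5j, Atp5j2, Atp5c1 and Atp5l followed, with log2 changes between -0.59 for Atp5a1 and -0.43 for Atp5l. At the other end, Atp5g1, the most drug-responsive gene of ATP synthase, differed by -0.12 (adjusted p = 0.618), and this was the smallest difference among the 40 genes with a mean intensity above 1000. Atp5j was lower without the drug (log2 -0.56 ± 0.14 (SE), adjusted p = 0.0264) and was called in neither rosiglitazone comparison.

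**Figure D4:**
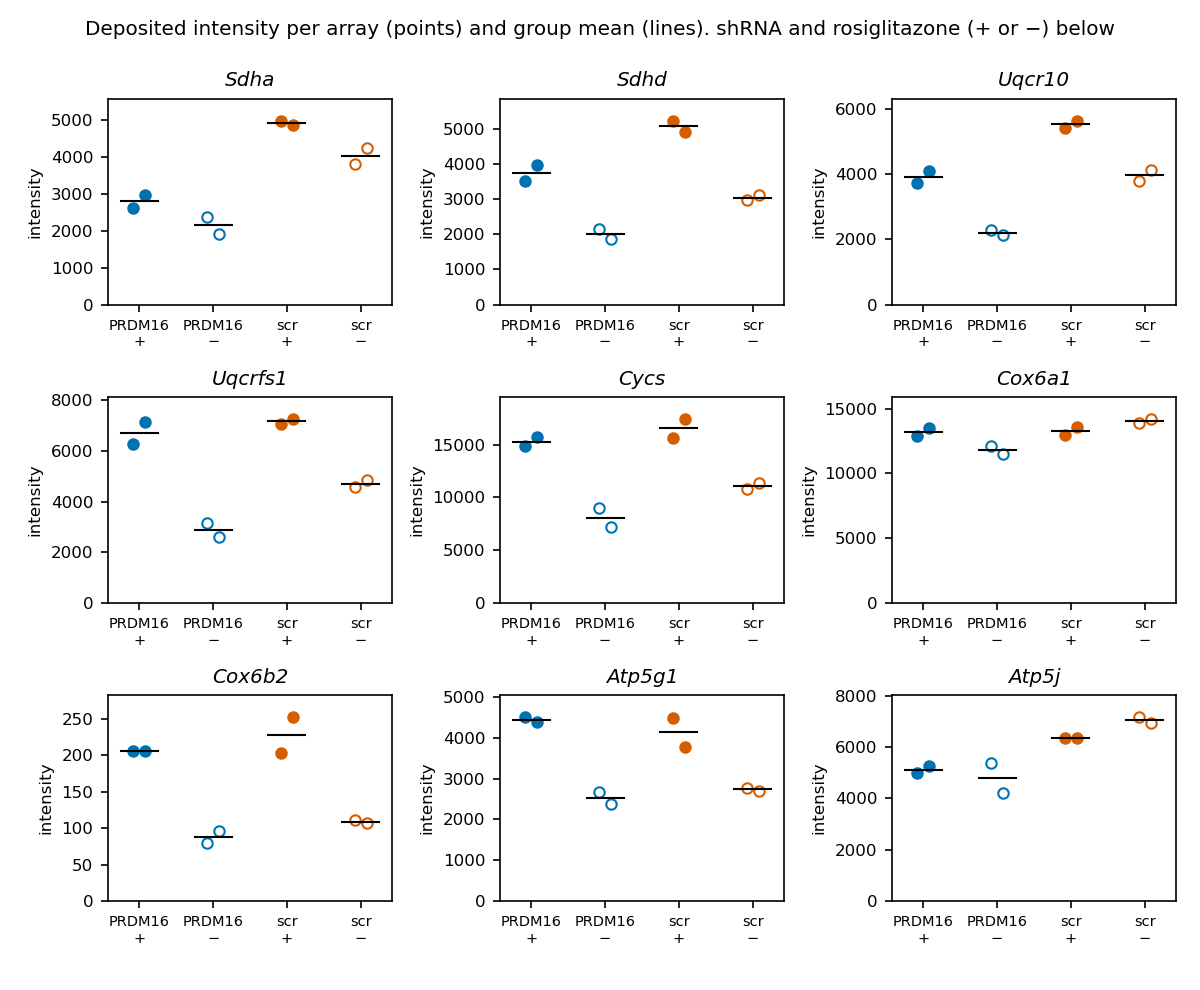
Deposited intensity of 9 genes in each array (points) with group means (lines), each panel with its own axis from 0; PRDM16 and scr name the hairpin, and + and − stand for cells with and without rosiglitazone. Sdha separates mainly by hairpin, Uqcr10 by both hairpin and drug, and Uqcrfs1 by drug and, in untreated cells, by hairpin. Cycs, Cox6b2 and Atp5g1 separate mainly by drug, and Cox6a1 stays nearly level.

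The rosiglitazone response of the 45 genes did not differ detectably between sh-PRDM16 and sh-scr cells. In the test of the difference itself, 0 of 45 genes passed (limma, 0.667% of all genes called in either direction), the lowest adjusted p was 0.147, and 7 of 45 had an unadjusted p under 0.05, beside 25.4% of all genes. On the deposited scale the response was larger in sh-PRDM16 cells for all 45 genes, by a median log2 of 0.317. All genes shifted by 0.33, so the median relative to them was −0.013, and with arrays centred on their medians the response was larger in sh-PRDM16 cells for 16 of the 45, again with 0 genes called (0.0538% of all genes). With quantile-normalized arrays it was larger in sh-PRDM16 cells for 29 of the 45, with 0 genes called (0.0538% of all genes), so the direction held by the majority turned with the scale. A single difference had an SE of 0.186 at the median, and even the largest of the 45, well above that size, was not called. Differences several times the SE could therefore have been missed. Uqcrfs1 had the largest difference of the 45 (log2 0.61 ± 0.20 (SE), adjusted p = 0.147), and it was called when 64 was added in place of 16 before the log (log2 0.603, adjusted p = 0.0367) or when the dimmer 50% of genes were left out (log2 0.612, adjusted p = 0.0272). On the median-centred scale its difference was 0.26 (adjusted p = 0.378). Across the 45 genes the changes with rosiglitazone in the 2 kinds of cell had a Pearson correlation of 0.913 (Spearman 0.898). This is given as a description over genes that share 4 arrays on each side.

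Among thermogenic genes outside the 45, Ucp1 differed between the hairpins in its response to rosiglitazone, while Cox8b and Cox7a1 were not called in that test. Ucp1 averaged 91.5 ± 13.5 in treated and 4 ± 0.85 in untreated sh-PRDM16 cells, and 1309 ± 18.7 in treated and 12.9 ± 10.9 in untreated sh-scr cells (SD, n = 2 each). Its response to the drug was smaller in sh-PRDM16 cells, with a difference of log2 -3.15 (adjusted p = 0.00943). Cox8b, the brown fat isoform set beside Cox8a, averaged 20.4 ± 5.59 in treated and 12.8 ± 10.8 in untreated sh-PRDM16 cells, and 444 ± 35.6 in treated and 97.7 ± 7.28 in untreated sh-scr cells (SD, n = 2 each), and its difference in response was log2 -1.64 (adjusted p = 0.0616). Cox7a1 averaged 643 ± 109 in treated and 138 ± 7 in untreated sh-PRDM16 cells, and 2106 ± 335 in treated and 492 ± 47.2 in untreated sh-scr cells (SD, n = 2 each). Cox7a1 rose in both kinds of cell, with a difference in response of 0.03 (adjusted p = 0.928), beside a median of 0.33 over all genes. It was lower in sh-PRDM16 cells both without the drug (log2 -1.72, adjusted p = 0.000283) and with it (log2 -1.69, adjusted p = 0.000438). The common isoforms Cox7a2 and Cox8a differed between hairpins by log2 -0.10 and -0.31 with the drug, neither called.

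**Figure D5:**
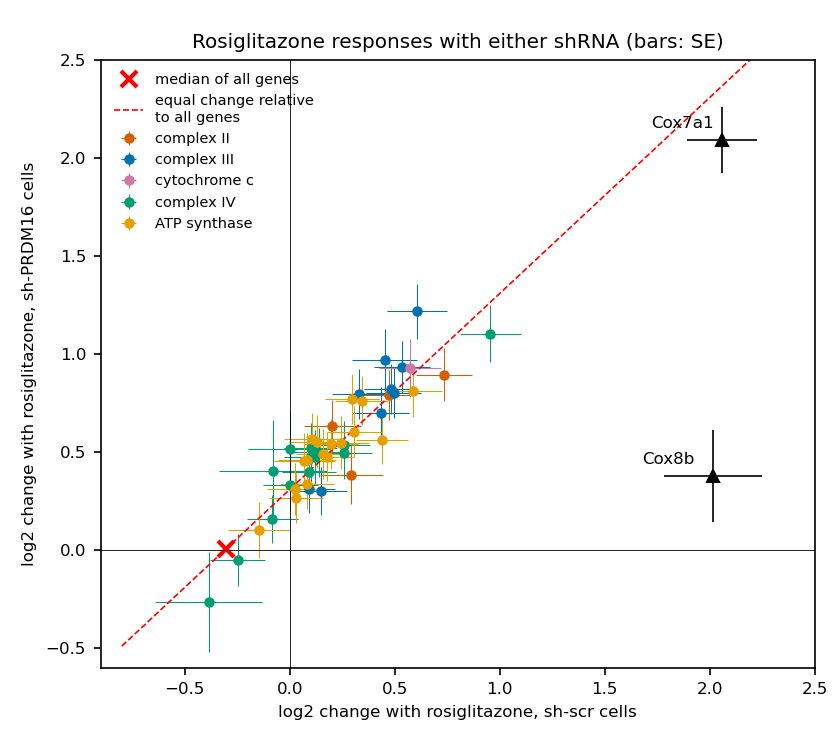
Log2 change with rosiglitazone in sh-scr cells (horizontal) and in sh-PRDM16 cells (vertical) for the 45 genes, coloured by complex, with Cox7a1 and Cox8b as triangles; bars are SE. Most of the 45 genes lie near the dashed line of equal change relative to all genes (the cross marks the median of all genes). Cox8b, whose intensities in sh-PRDM16 cells are close to the floor, lies far below it, and Cox7a1 lies below it by a smaller step.

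The brighter of the 45 genes changed with less spread than all bright genes did. Over the 40 whose mean intensity exceeded 1000, the SD of the log2 change between genes was 0.241 with rosiglitazone in sh-PRDM16 cells and 0.207 in sh-scr cells, beside 0.501 and 0.472 over the 2313 genes with a mean intensity above 1000. For sh-PRDM16 against sh-scr it was 0.17 with the drug and 0.168 without it, beside 0.364 and 0.377. With rosiglitazone in sh-PRDM16 cells the 40 still ranged from 0.101 for Atp5j to 1.217 for Uqcrfs1. Their changes went with brightness. The Spearman correlation with mean level was −0.447 with rosiglitazone in sh-PRDM16 cells and −0.444 in sh-scr cells, beside 0.039 and 0.088 over the 2313. Between hairpins it was 0.456 with the drug and 0.485 without, beside −0.057 and 0.005. The cause was not tested. Untreated sh-PRDM16 cells had the lowest group mean for 43 of 45 genes (42 with arrays centred on their medians) and treated sh-scr cells the highest for 33 (43 with centred arrays). Where a gene had several probe sets tested, as 25 genes did, they did not always agree. Their changes had opposite signs for 6 genes with rosiglitazone in sh-scr cells, 2 in sh-PRDM16 cells, 2 for the hairpins without the drug and 5 with it, though none of the 25 was called both ways. In the fit of all probe sets, the brightest probe set was not called while another was for 5 genes with rosiglitazone in sh-PRDM16 cells, 2 in sh-scr cells, 4 between hairpins without the drug and 0 with it. The brightest alone was called for 4, 1, 3 and 0 genes in the same comparisons, Sdhd among them, whose second, dimmer probe set gave log2 0.718 in sh-PRDM16 cells (adjusted p = 0.116) and 0.417 in sh-scr cells (adjusted p = 0.224). Among them, a dimmer probe set of Sdhc gave log2 −0.338 with rosiglitazone in sh-scr cells, where the brighter one gave 0.203, and neither was called. In a fit of all probe sets, 45 of the 79 tested were higher with rosiglitazone in sh-PRDM16 cells (7.49% of all probe sets), and 17 were higher and 1 lower in sh-scr cells (3.98% and 25.4%). The probe set called lower belongs to Uqcrq and averaged 8.6 in treated and 41.35 in untreated sh-scr cells, close to the floor. In sh-PRDM16 against sh-scr cells 4 probe sets were lower with the drug (3.37% of all probe sets) and 31 without it (10.9%).

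Genes of related mitochondrial lists were counted in the same way, first on the deposited scale and then with arrays centred on their medians. The shares of all genes to read them against were 10.1% higher with rosiglitazone in sh-PRDM16 cells and 5.2% in sh-scr cells (14.4% and 14.7% with centred arrays), and 4.62% lower between hairpins with the drug and 15.5% without it (12.4% and 11.9% with centred arrays). Of 39 complex I genes, 30 rose with rosiglitazone in sh-PRDM16 cells and 9 in sh-scr cells, which became 33 and 38 with centred arrays. In sh-PRDM16 against sh-scr cells 2 of them were lower with the drug and 28 without it, which became 24 and 22. Their median changes relative to all genes were 0.672 and 0.562 with rosiglitazone in sh-PRDM16 and sh-scr cells, and −0.326 and −0.362 between hairpins with and without the drug. Of 17 citric acid cycle genes other than complex II, 14 rose in sh-PRDM16 cells and 7 in sh-scr cells (15 in each with centred arrays), and 1 was lower in sh-PRDM16 cells with the drug and 12 without it (11 and 12). Idh3a, a subunit of isocitrate dehydrogenase, rose by a log2 of 1.43 in sh-PRDM16 cells (adjusted p = 0.000172) and 1.03 in sh-scr cells (adjusted p = 0.0013). Of 26 measured assembly factors of complexes II to V, 12 rose in sh-PRDM16 cells, and 5 rose and 2 fell in sh-scr cells (18 rose, and 15 rose and 1 fell with centred arrays). Between hairpins 4 of them were lower in sh-PRDM16 cells with the drug and 15 without it (9 and 14, and 1 higher without the drug). Sdhaf2, which helps attach the flavin to Sdha, was lower in sh-PRDM16 cells with the drug (log2 -0.78, adjusted p = 0.0145) and without it (log2 -0.70, adjusted p = 0.0172). Of 12 glycolysis genes, 1 rose in sh-PRDM16 cells and 2 in sh-scr cells (2 and 10 with centred arrays), and 0 were lower in sh-PRDM16 cells with the drug and 2 without it (4 and 1, and 3 higher without the drug). The difference between the 2 kinds of cell in these counts thus changed with the scale.

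Regulators of mitochondrial gene expression were mixed. Ppargc1a, the co-activator PGC-1α, rose with rosiglitazone by a log2 of 1.25 in sh-PRDM16 cells (adjusted p = 0.000231) and 1.46 in sh-scr cells (adjusted p = 0.00018). It was lower in sh-PRDM16 than in sh-scr cells with the drug (log2 -1.47, adjusted p = 0.000185) and without it (log2 -1.27, adjusted p = 0.000319). Esrra, the nuclear receptor ERRα, rose in sh-PRDM16 cells (log2 0.90, adjusted p = 0.00487) and in sh-scr cells (log2 0.59, adjusted p = 0.0186) and did not pass the test between hairpins. Nrf1, Gabpa and Tfam passed no test on the deposited scale, with log2 changes with rosiglitazone in sh-PRDM16 cells of 0.17, 0.08 and 0.13. In all, of 16 such regulators 6 rose in sh-PRDM16 cells (10.1% of all genes higher), and 4 rose and 2 fell in sh-scr cells (5.2% higher and 32.2% lower), and with centred arrays 7 rose and 0 fell in each kind of cell (14.4% higher and 9.83% lower, and 14.7% and 9.95%).

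The cultures held adipocytes, and their marker levels differed between groups as well. Adipoq, the hormone adiponectin, averaged 13951 ± 395 in treated and 10479.8 ± 728 in untreated sh-PRDM16 cells, and 14195 ± 467 in treated and 14975 ± 304 in untreated sh-scr cells (SD, n = 2 each). Of 11 adipocyte markers measured, 4 were lower and 1 higher in sh-PRDM16 than in sh-scr cells with the drug, and 9 were lower and 0 higher without it. With centred arrays 7 were lower and 1 higher with the drug, and 9 lower and 0 higher without it. With rosiglitazone 4 rose and 2 fell in sh-PRDM16 cells, and 3 rose and 3 fell in sh-scr cells, and with centred arrays 7 rose and 2 fell in sh-PRDM16 cells and 4 rose and 3 fell in sh-scr cells. Their summed intensity was 70432 and 76049.7 in treated sh-PRDM16 cells, 55940.7 and 49025.8 in untreated sh-PRDM16 cells, 79468.9 and 83790.1 in treated sh-scr cells and 79834.5 and 81593.4 in untreated sh-scr cells. It was thus lowest in the group where most subunit genes were lowest. Of 11 macrophage and leukocyte markers tested, 10 were lower in sh-PRDM16 than in sh-scr cells with the drug and 9 without it, on the deposited and the centred scale alike (4.62% and 15.5% of all genes lower on the deposited scale), and their summed intensity was between 908.8 and 1188.8 in sh-PRDM16 cells and between 3660.5 and 6184.2 in sh-scr cells. Of the 12 listed, 1 lay below 16 on every array. Of 11 preadipocyte and fibroblast markers, 2 fell with rosiglitazone in sh-PRDM16 cells and 8 in sh-scr cells (3.31% and 32.2% of all genes lower), which became 7 and 5 with centred arrays (9.83% and 9.95%), with summed intensities from 61153.3 to 62908.7 in treated and from 66476.7 to 73622.5 in untreated sh-PRDM16 cells, and from 53582 to 55140.7 in treated and from 70692.8 to 71875.3 in untreated sh-scr cells. Of 7 smooth muscle markers, 4 fell in sh-PRDM16 cells and 7 in sh-scr cells (4 in each with centred arrays). The log2 ratio of the 3′ to the 5′ probe set for beta-actin, a measure of RNA integrity and labelling, was 0.384 and 0.488 in treated sh-scr cells and between 0.247 and 0.34 in the other 6 arrays. For Gapdh this ratio was between −0.354 and −0.326 in the treated arrays and between −0.445 and −0.404 in the untreated ones, so it separated treated from untreated arrays in both kinds of cell, as most subunit genes did. The part of these differences in the subunit results was not tested, and in bulk RNA fewer cells of a type and less RNA per cell cannot be told apart.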

How the data were processed

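Total RNA of each culture was labelled as biotinylated cRNA and hybridised to Affymetrix mouse 430A_2 arrays, per the labels' protocols. The deposited values are linear intensity per probe set (22690 probe sets, 8 arrays). How probe sets were summarised, and whether arrays were scaled to each other, is not given in the sources used here. The number of arrays limits the precision.

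Samples were grouped by their titles and characteristics. Gene names came from the platform annotation, in which 20380 probe sets had 1 gene, 691 had several, 1555 were not listed and 64 were controls. By Entrez identifier 12369 of 12393 genes matched RefSeq. Each gene took the values of the probe set whose mean log2 value was highest, the 25% of genes with the lowest means were left out (9294 tested), and log2(intensity + 16) was fitted with limma 3.58.1 (lmFit and eBayes, R 4.3.3) to the 8 arrays together with 4 group means (4 residual and 5.31 prior degrees of freedom). Fold changes are on this scale and understate changes of dim genes. Tests of the 5 contrasts were two-sided, p-values were adjusted by Benjamini-Hochberg over every gene tested, and the threshold was 0.05. The fit was tested on simulated data. Alternatives were median-centred and quantile-normalized arrays, pseudocounts of 1 and 64, no filter or 50% left out, the mean of all probe sets, the replicate number as a block, only the arrays compared, and each of the 8 arrays left out in turn.

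The same replicate numbers did not pair the samples, since correlations of replicate deviations between groups lay between −0.022 and 0.053. Replicates correlated at 0.9914 to 0.9927 and were not duplicates (121 to 128 identical values). Every gene of the 45 may be named. Values in every array are given for the 2 highest and the lowest rosiglitazone change per complex (cytochrome c counted with complex III) in each kind of cell, the largest hairpin differences and the tissue-restricted isoforms. Other genes came from marker and pathway lists. Members and lists were chosen with earlier results of these data known.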

Additional observations from a re-analysis of the deposited data

How the results depend on the processing

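No gene of the 45 that was called on the deposited scale changed sign in any alternative tried. With rosiglitazone in sh-scr cells the count of genes higher was 39 with median-centred and 36 with quantile-normalized arrays, against 12 on the deposited scale. Leaving out 1 array at a time it ranged from 2 to 15, and the count of genes lower from 0 to 1. With rosiglitazone in sh-PRDM16 cells it was 16 when only the 4 arrays compared were fitted, against 28, and ranged from 13 to 29 with 1 array left out. For sh-PRDM16 against sh-scr with the drug the count lower was 11 with median-centred and 11 with quantile-normalized arrays, and 1 without a filter, with the mean of all probe sets or with the replicate block, against 2, and it ranged from 0 to 3 with 1 array left out. Without the drug the count lower ranged from 2 to 27 with 1 array left out, against 21. In the difference of responses 1 gene, Uqcrfs1, was called with a pseudocount of 64 and 1 with 50% of genes left out, against 0. With the replicate block, 10 of the 12 calls in sh-scr cells, 23 of the 28 in sh-PRDM16 cells, 17 of the 21 between hairpins without the drug and 1 of the 2 with it were kept. Counts over all genes shifted in these alternatives as well. The cause of these shifts was not tested, beyond the loss of arrays or of residual degrees of freedom in the smaller fits. The median change of the 45 genes relative to all genes moved by less than 0.103 in every alternative. This value is the pooled SD of the member median between replicate arrays. With 2 arrays per group, a shift below that spread when 1 is left out follows largely from the arithmetic, so it is no test of robustness. With 1 array left out it lay between 0.495 and 0.553 with rosiglitazone in sh-PRDM16 cells and between 0.416 and 0.55 in sh-scr cells.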
